A study of Mus musculus with 15 samples.

Results

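The genes described here are the beta-thymosins Tmsb4x and Tmsb10, the cytoplasmic actins Actb and Actg1, the depolymerising factor cofilin (Cfl1), profilin (Pfn1), and the Arp2/3 complex subunits Arpc1b and Arpc2. These 8 genes were named with measured values of these arrays known, among them the difference in Tmsb4x between 2 kinds of single cell, so their levels in the cells are given as a description, with no test. A gene was taken from the probe set that carries its symbol alone, and from the brightest over all 15 arrays where it had several. Of the 8 genes, 7 had such a probe set, out of 19938 genes with a probe set of their own. Actg1 had none, since its 4 probe sets are all shared with Actb, and no value is given for it. Tmsb10 and Arpc1b had 2 probe sets each.

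Actin filaments grow by adding actin monomers at one end and lose them at the other. Thymosins hold monomers back from assembly, profilin hands them to growing ends, cofilin severs old filaments and frees monomers, and the Arp2/3 complex starts new branches from the side of existing filaments. In the kidney this turnover shapes migrating and condensing progenitors in the embryo and contractile and epithelial cells in the adult.

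The arrays fall into 4 groups. Metanephric mesenchyme (MM), from which nephrons form, gave 4 single cells, numbered 14, 15, 16 and 19, from embryos at day 11.5 that carry Tg(Crym-EGFP)GF82Gsat, a transgene with GFP under Crym regulatory sequence, and of unknown sex. Another 5 were single juxtaglomerular (JG) cells, numbered 4 to 8, from adult male Ren1c-YFP mice, a reporter for the renin-producing cells of the arteriole wall, although the labels' dissection text speaks of Ren1d GFP. Adult male Ren1c-YFP renal cortex, a mixture of many cell types, gave 3 diluted libraries (A, B and C), amplified with the single cell protocol over 32 rounds, and 3 standard libraries (A, B and C), labelled with the NuGEN WT-Ovation Pico kit over 1 round. Single cells were picked by hand under fluorescence, and the labels name no animal and no strain, so each kind of cell counts as 1 sample here and SDs are spreads over cells. Because the cortex is a lysate, fewer cells of a type and less RNA per cell cannot be told apart in it.

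All values are deposited log2 signals. A gene was taken as above background where it exceeded the 99th percentile of 1210 olfactory and vomeronasal receptor probe sets on the same array. That level lay between 7.13 and 7.56 on the MM arrays, between 7.55 and 7.92 on the JG arrays, between 6.18 and 6.30 for the diluted libraries and between 6.30 and 6.51 for the standard ones. MM cells 14 and 19 had 20.7% and 21.1% of all genes above it, MM cells 15 and 16 had 15.8% and 10.9%, and each JG cell had 6.87% to 14.2%, whereas the diluted libraries had 48.3% to 50.5% and the standard ones 43.7% to 48.2%. The median of 57 ribosomal protein genes was 12.35 to 12.56 in MM cells, 8.44 and 8.38 in JG cells 4 and 5 and 12.32 to 12.34 in the other JG cells. Mgp and Crip1, which mark renin cells, were high in all 5 JG cells (13.17 to 13.46 and 11.96 to 13.01). Rgs5, the other renin cell gene measured, was at 10.44, 9.76 and 10.55 in JG cells 4, 6 and 7. It was below background in JG cells 5 and 8 (6.82 and 5.99). Ren1, Ren2 and Akr1b7 had no probe set of their own. Of 8 cap mesenchyme genes, which mark nephron progenitors, 3 to 4 were above background per MM cell, 1 to 4 per JG cell, 5 in each diluted library and 3 to 5 in the standard ones, so this count does not set MM cells apart. Among these genes Six2 was at 10.13 in MM cell 16 and at 6.69 to 7.53 in the other MM cells. Crym, whose regulatory sequence the transgene carries, was at 7.27, 7.50, 8.61 and 6.90 in MM cells 14, 15, 16 and 19. Only the value of cell 19 was below background, and diluted cortex had 11.02 to 11.20. Cited1 averaged 7.45 in MM cells and 7.94 in JG cells. None of 12 leukocyte genes exceeded background in any of the 9 cells, among them Ptprc, Cd74 and Tyrobp. Of 10 proximal tubule genes 3 were above background in JG cell 5, Miox (12.63), Gpx3 (12.37) and Slc22a6 (8.74), while the others, such as Slc34a1 (6.85) and Slc27a2 (5.63), were below it. Elsewhere Gpx3 was at 8.87 and 11.57 in MM cells 15 and 19. The endothelial gene Emcn was at 11.77 in MM cell 14, and another, Cldn5, at 10.8 in JG cell 5. Of the smooth muscle genes, Des was at 11.45 and 11.39 in MM cells 15 and 19, and Myl9 at 11.80 in MM cell 19. The part that these cell differences have in the values below was not tested.

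The 250 bases before the start of transcription are shown for the thymosins and for both Arp2/3 subunits, the pairs whose members did not follow each other over single cells. They come from RefSeq (assembly GRCm38.p6), in the direction of the gene, with capitals for each copy of GGGCGG, the GC box bound by Sp1-type factors, or of its reverse complement. Of the 3 Tmsb10 starts listed, the one farthest upstream is shown.
Tmsb4x, chrX:167209219-167209468, minus strand: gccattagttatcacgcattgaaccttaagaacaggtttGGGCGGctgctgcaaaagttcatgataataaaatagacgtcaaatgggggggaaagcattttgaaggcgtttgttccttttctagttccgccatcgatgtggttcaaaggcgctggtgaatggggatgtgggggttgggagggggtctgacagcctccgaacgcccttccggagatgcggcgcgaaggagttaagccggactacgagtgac
Tmsb10, chr6:72958749-72958998, minus strand: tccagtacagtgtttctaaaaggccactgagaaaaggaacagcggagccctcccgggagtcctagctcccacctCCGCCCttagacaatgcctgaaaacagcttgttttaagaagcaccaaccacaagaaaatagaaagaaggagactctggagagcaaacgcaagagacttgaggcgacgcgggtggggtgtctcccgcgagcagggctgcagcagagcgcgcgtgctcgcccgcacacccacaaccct
Arpc1b, chr5:145114006-145114255, plus strand: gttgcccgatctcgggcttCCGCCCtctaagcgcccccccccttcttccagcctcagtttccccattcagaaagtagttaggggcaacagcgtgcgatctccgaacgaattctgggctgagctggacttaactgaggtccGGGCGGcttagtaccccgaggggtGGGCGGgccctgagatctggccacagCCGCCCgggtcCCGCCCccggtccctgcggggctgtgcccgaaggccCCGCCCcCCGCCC
Arpc2, chr1:74236267-74236516, plus strand: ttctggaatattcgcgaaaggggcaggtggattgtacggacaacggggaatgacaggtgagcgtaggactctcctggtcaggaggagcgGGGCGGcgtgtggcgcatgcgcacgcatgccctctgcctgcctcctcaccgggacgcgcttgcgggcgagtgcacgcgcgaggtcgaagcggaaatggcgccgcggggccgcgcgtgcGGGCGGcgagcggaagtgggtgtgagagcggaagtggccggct
The Tmsb4x and Tmsb10 windows hold 1 GC box each, Arpc1b holds 7 and Arpc2 holds 2. Actb had no entry and was not searched, while Actg1 had one. The 7 genes with an entry gave 9 windows. A GC box was in 8 of the 9 windows and in 6 of the 7 genes, all but Cfl1, while 32.7% of all 32851 windows have one. The 9 windows held 52% to 79.2% GC, beside a median of 52.4% over all windows. The part of base composition in the GC box count was not tested. TATAAA was in none of the 9 windows and is in 12.4% of all. The CArG box, the element of serum response factor, was found in 1 of these 7 genes, Actg1, and in 1.47% of all windows. Its match in Actg1 begins 90 bases before the start. CCAAT was in 2 of these genes, Actg1 and Cfl1, and in 33.8% of windows. Both strands were searched, matches of 1 motif may overlap, and a match is a description of letters only.

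Tmsb4x and Tmsb10, which encode monomer-holding peptides of the same family, differed in which cells they varied. Tmsb4x was 11.59 and 11.69 in MM cells 14 and 19 but 5.40 and 6.33 in MM cells 15 and 16, which is below the background of those 2 arrays. In JG cells 4 to 8 it was 12.71, 12.86, 12.34, 12.29 and 12.52. The cortex gave 10.92, 10.96 and 11.05 in diluted libraries A to C and 11.19, 11.38 and 11.30 in standard libraries A to C. As measured, the 5 JG cells thus lay above all other arrays. Over the background of their arrays they were at 4.59 to 4.99, beside 4.68 to 4.75 in diluted and 4.67 to 5.07 in standard cortex. The MM cells split into 2 near the cortex level and 2 without a signal above background. The 2 MM cells without it are also the 2 with the smaller shares of all genes above background (15.8% and 10.9%, against 20.7% and 21.1% in cells 14 and 19), and the part of this in the Tmsb4x split was not tested.

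Tmsb10 was nearly level in MM cells, at 12.92, 13.05, 12.94 and 13.02 in cells 14, 15, 16 and 19. In JG cells it was 6.91, 12.73, 13.10, 11.50 and 12.30 in cells 4 to 8. Diluted cortex had 10.86, 11.22 and 11.13, and standard cortex 11.14, 11.73 and 11.44. JG cell 4 alone was below background. Ribosomal protein genes were low in JG cells 4 and 5 (medians 8.44 and 8.38), and their part in the Tmsb10 values was not tested. The second Tmsb10 probe set followed the first on every array, with differences between -0.03 and 0.08.

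**Figure D1:**
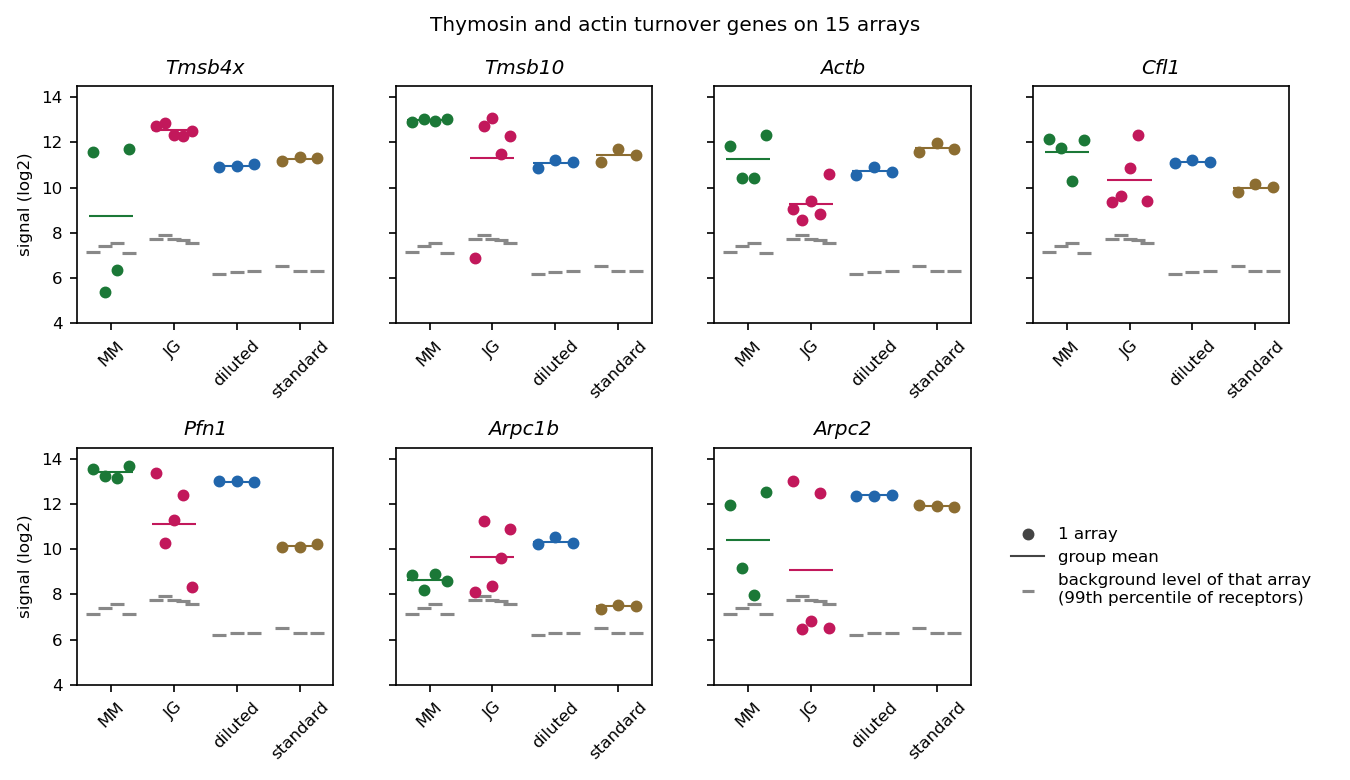
Log2 signal of the 7 genes on each of the 15 arrays, by group (MM cells, JG cells, diluted cortex, standard cortex). Points are arrays in the order of their number or letter, coloured lines are group means and grey dashes are the background level of each array. Tmsb4x falls below the dash in MM cells 15 and 16, Tmsb10 in JG cell 4 and Arpc2 in JG cells 5, 6 and 8.

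Where one thymosin was below background, its value was set to the background level of that array, which gives the Tmsb10 minus Tmsb4x difference as a bound. This difference was 1.33 in MM cells 14 and 19, at least 5.65 in cell 15 and at least 5.38 in cell 16 (log2). In JG cell 4 it was -4.99 or lower, and in JG cells 5 to 8 it was -0.13, 0.76, -0.79 and -0.22. It ranged from -0.07 to 0.26 in diluted cortex and from -0.05 to 0.35 in standard cortex. The probe sets differ, so the difference says nothing on which peptide is more abundant in one array, but it was larger in every MM cell than on any other array, and each of the 9 cells had at least 1 of the 2 thymosins above background.

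**Figure D2:**
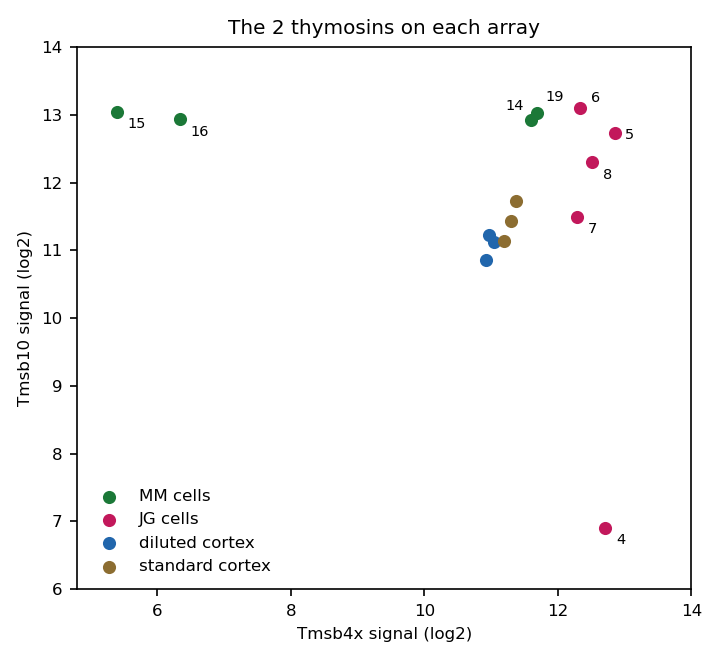
Tmsb4x (horizontal) against Tmsb10 (vertical), log2 signal, 1 point per array, with the numbers of the single cells. MM cells share a Tmsb10 level near 13 and differ in Tmsb4x, JG cells share a Tmsb4x level between 12.29 and 12.86 and differ in Tmsb10, and the 6 cortex libraries lie together.

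A gene was counted as different between kinds of sample where the group means differed by at least 1 log2 unit and the groups did not overlap, among genes above background in the higher group. Tmsb4x averaged 8.76 ± 3.36 in MM cells and 12.54 ± 0.24 in JG cells (SD, n = 4 and 5 cells), a difference of -3.79, in which the 2 MM values below background enter as measured. The difference was between -4.77 and -2.67 when any single cell was left out. The 2 MM cells below background were not left out together. Tmsb10 averaged 12.98 ± 0.06 in MM cells and 11.31 ± 2.53 in JG cells, a difference of 1.68 with overlap. Without JG cell 6 the groups no longer overlapped (2.12). Against 10.98 ± 0.06 in diluted cortex, Tmsb4x in JG cells was higher by 1.56 without overlap. Receptor probe sets, which carry background, were also shifted upward on the JG arrays, by a median of 1.02, and with each array's receptor median taken off the Tmsb4x difference was 0.51, below the limit of 1. In MM cells Tmsb10 was higher than in diluted cortex (11.07 ± 0.19) by 1.91 without overlap, and by 1.07 with the receptor median taken off. The JG difference of Tmsb10 from diluted cortex was 0.23, and 1.33 without overlap once JG cell 4 was left out, but -0.28 with array centring and -0.82 with the receptor median taken off.

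Actb, the cytoplasmic actin of most cells, was 11.85, 10.42, 10.44 and 12.31 in MM cells 14, 15, 16 and 19. In JG cells 4 to 8 it was 9.04, 8.56, 9.41, 8.81 and 10.60. Diluted cortex had 10.56, 10.90 and 10.69, and standard cortex 11.59, 11.99 and 11.71. Of the JG cells only cell 8 reached the range of the MM cells. The MM mean was higher than the JG mean by 1.97 with overlap, and by 2.30 without overlap when JG cell 8 was left out. Actb in JG cells differed from diluted cortex by -1.44, and the groups did not overlap without JG cell 8 (-1.76) or without diluted library A (-1.51). The difference was -1.95 with array centring and -2.49 with the receptor median taken off, both without overlap, and 0.54 after quantile normalization. The muscle actin Acta2, which marks smooth muscle, was at 12.20 and 11.32 in JG cells 7 and 8 and at 6.02 to 6.93 in the other 3. Of 8 smooth muscle genes 2 were above background in JG cell 7 and 3 in JG cell 8, and Myh11, Tagln and Cnn1 were below it in both.

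Cfl1 was 12.14, 11.77, 10.31 and 12.09 in MM cells 14, 15, 16 and 19. JG cells 4 to 8 had 9.35, 9.62, 10.87, 12.34 and 9.43. Diluted cortex gave 11.07, 11.23 and 11.12, and standard cortex 9.81, 10.14 and 10.02. JG cell 7 was as high as the highest MM cells and the other JG cells were lower than 3 of the 4 MM cells. Its MM and JG means differed by 1.25 with overlap. Against diluted cortex JG cells differed by -0.82, and without JG cell 7 by -1.32 with no overlap, while after quantile normalization the difference was 0.79.

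Pfn1 was high in each MM cell, at 13.56, 13.22, 13.17 and 13.67. The JG cells spread widely, with 13.36, 10.28, 11.29, 12.41 and 8.33 in cells 4 to 8. Diluted cortex was at 13.01, 13.00 and 12.97 and standard cortex at 10.10, 10.09 and 10.22. All MM cells lay above all diluted libraries, by a mean of 0.41, which was 0.04 with array centring and -0.43 with the receptor median taken off. JG cell 4, with the lowest Tmsb10, had the highest Pfn1 of its group, and without it the JG cells lay below the MM cells (2.83, MM minus JG) and below diluted cortex (-2.42).

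Arpc1b and Arpc2, a beta-propeller subunit and a core subunit of the same complex, did not follow each other from cell to cell. Arpc2 was 11.94, 9.17, 7.98 and 12.52 in MM cells 14, 15, 16 and 19. It was 13.02 and 12.47 in JG cells 4 and 7 and below background at 6.46, 6.83 and 6.52 in JG cells 5, 6 and 8. Diluted cortex had 12.37, 12.37 and 12.40, and standard cortex 11.93, 11.89 and 11.88. As measured, JG cells therefore either lay above all cortex libraries in Arpc2 or lacked a signal above background. Over the background of their arrays, JG cells 4 and 7 were at 5.29 and 4.78, beside 6.08 to 6.19 in diluted cortex. The JG mean differed from diluted cortex by -3.32 with overlap, and by -4.37 without overlap with the receptor median taken off.

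Arpc1b was 8.87, 8.19, 8.90 and 8.60 in MM cells 14, 15, 16 and 19. In JG cells 4 to 8 it was 8.10, 11.24, 8.37, 9.62 and 10.89. Diluted cortex measured 10.21, 10.55 and 10.25, and standard cortex 7.37, 7.54 and 7.50. The 2 JG cells with the most Arpc1b, cells 5 and 8, were without Arpc2 above background. The other Arpc1b probe set gave 11.63 and 11.13 in these 2 cells and 7.39 and 7.64, below background, in JG cells 4 and 6. It was below background in MM cells 16 and 19 as well (6.28 and 6.80) and near it in MM cells 14 and 15 (7.21 and 7.77), so the low MM level of Arpc1b is close to background by this probe set.

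Arpc1b was lower in MM cells than in diluted cortex, with a difference of -1.70 and no overlap, which ranged from -1.79 to -1.55 when any single array was left out. After quantile normalization the difference was -0.47. Arpc2 differed by -1.98 with overlap, and by -2.68 without overlap when MM cell 19 was left out. Between MM and JG cells the means differed by -1.01 for Arpc1b and 1.34 for Arpc2, both with overlap.

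Of 8 other subunit genes of the complex, 3 had no probe set of their own. Among the 5 measured, 1 was higher in MM than in JG cells by the rule above, Arpc1a, beside 4.93% of all genes above background. All 5 were above background in MM cells 14 and 19, while 3 were in cell 15 and 2 in cell 16. In JG cells no more than 1 of the 5 was above background per cell. Arpc1a, the alternative to Arpc1b in the complex, was 10.26, 12.21, 8.58 and 9.46 in the MM cells, against 6.96 to 7.62 over the JG cells, a difference of 2.77 without overlap. Arpc5 differed by 3.71 and its relative Arpc5l was at least 2.07-fold higher in MM cells, both with overlap. Here and below, "at least" gives a linear fold of the higher group's mean over the background level of the lower group, whose arrays were all below background, and every other difference is in log2 units. The groups also overlapped in Actr3, where MM cells 15 and 16 (6.27 and 6.26) were as low as JG cells (6.11 to 7.30), and in Arpc4. All 5 were lower in JG cells than in diluted cortex by the same rule, as were 56.8% of all genes above background, with a median difference of -3.69, against a median of -1.57 over all genes above background in the higher group. Arpc5l was at least 11.9-fold lower and Arpc5 differed by -5.00. In MM cells 1 of the 5 was lower than in diluted cortex (Arpc5l, -2.52), beside 41.9% of all genes above background. Actr3, an actin-related subunit, differed by -1.49 with overlap.

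**Figure D3:**
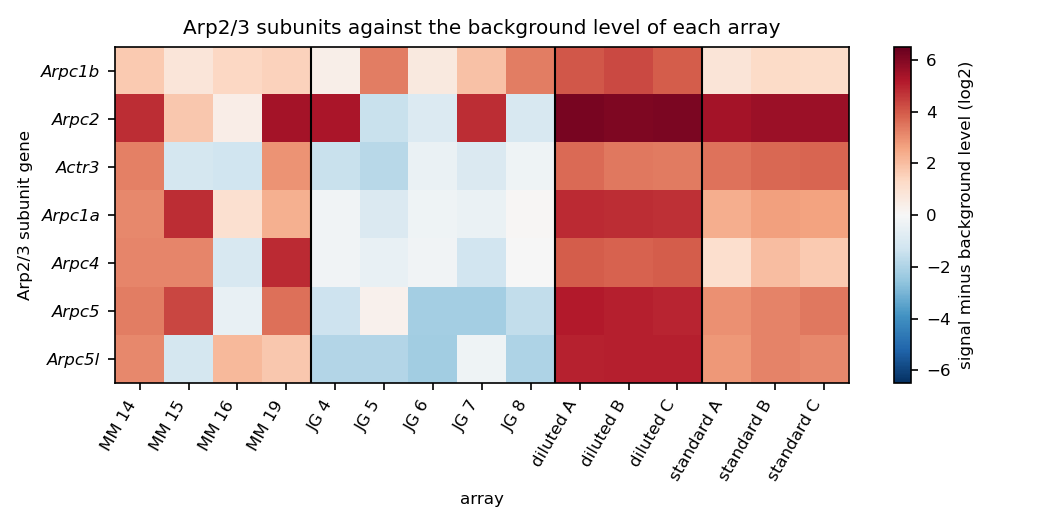
Arp2/3 subunits on each array as signal minus that array's background level (log2, colour scale from blue below to red above), with MM cells, JG cells, diluted cortex and standard cortex from left to right. Arpc2 is red in JG cells 4 and 7 and Arpc1b in JG cells 5, 7 and 8, while most other subunits in JG cells are pale or blue.

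Counted over the 7 genes, none was higher and 1 was lower in MM than in JG cells, Tmsb4x. By the same rule 4.93% of all 3853 genes above background were higher and 1.09% were lower. The members' median difference was 1.34, beside 0.63 over these 3853 genes above background in the higher group. In JG cells against diluted cortex 1 of 7 was higher, Tmsb4x, and 0 were lower, where 8.01% of 8622 genes were higher and 56.8% were lower. In MM cells against diluted cortex 1 was higher, Tmsb10, and 1 was lower, Arpc1b, where 7.45% of 9157 genes were higher and 41.9% were lower. The median differences of the 7 genes were -0.82 for JG cells and 0.41 for MM cells. Over the 8622 and 9157 genes above background in the higher group they were -1.57 and -1.12. Both comparisons share the 3 diluted libraries. The JG median was 0.79 after quantile normalization, and the MM median was -0.43 with the receptor median taken off.

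Other genes of actin turnover came from lists of 88 measured genes. Between MM and JG cells 31 of the 88 were above background in the higher group. Of these 2 were higher (6.45%) and 0 lower, beside 4.93% and 1.09% of all genes above background. The 2 were Arpc1a and the tropomyosin Tpm3 (3.63), which coats filaments. Among cofilin relatives and severing factors Cfl2 was at least 2.53-fold higher in MM cells and Cotl1, a coactosin that binds filaments, differed by 2.30, both with overlap. Cotl1 was at 11.71 and 12.45 in MM cells 14 and 19 and at 7.80 and 7.67 in cells 15 and 16. MM cells 14 and 19 were also the higher ones for Tmsb4x, Arpc2, Actr3, Cfl2, Dstn and Twf2, and had the larger shares of all genes above background, whose part in these levels was not tested. The monomer-binding Twf2 was at least 2.82-fold higher, the capping subunit Capzb differed by 1.85 and the VASP-family gene Evl by 1.29, all with overlap.

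JG cells against diluted cortex had 58 of the 88 above background in the higher group. Of these 2 were higher (3.45%) and 32 lower (55.2%), near the 8.01% and 56.8% of all genes above background. Among the genes of each list above background in the higher group, 7 of 13 severing factors were lower, such as villin Vil1 (at least 7.92-fold) and Cotl1 (-3.67). All 3 such genes of monomer recycling were lower, Pfn2 (at least 2.84-fold), Twf1 (-2.45) and Twf2 (at least 1.53-fold). So were 4 of 10 Arp2/3 activators and coronins, such as Nckap1 (at least 2.69-fold) and Coro1b (-2.87), and 5 of 8 capping genes, such as Capza2 (at least 4.92-fold). Of filament partners 8 of 14 were lower, such as Tpm3 (-2.93) and Ezr (-2.79). Only 3 of 10 formins and VASP proteins were above background, and none of these was lower. The skeletal actin Acta1 was higher by 1.68, beside the receptor shift of 1.02.

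MM cells against diluted cortex had 61 of the 88 above background in the higher group. Of these 5 were higher (8.20%) and 24 lower (39.3%), near the 7.45% and 41.9% of all genes above background. Higher were Evl (1.83), the tropomyosin Tpm2 (2.35) and Acta1 (1.75), beside a receptor shift of 0.81. Among the genes of each list above background in the higher group, 6 of 14 severing factors were lower, such as Vil1 (at least 10.6-fold) and Wdr1 (at least 5.39-fold), a helper of cofilin. So were 5 of 10 activators and coronins, such as Nckap1 (at least 3.60-fold) and Brk1 (-2.13), and 6 of 15 filament partners, such as Tagln2 (-3.88). Vil1 belongs to the brush border of proximal tubule, whose 10 marker genes were all above background in every cortex library and 1 to 2 of them in each MM cell.

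**Figure D4:**
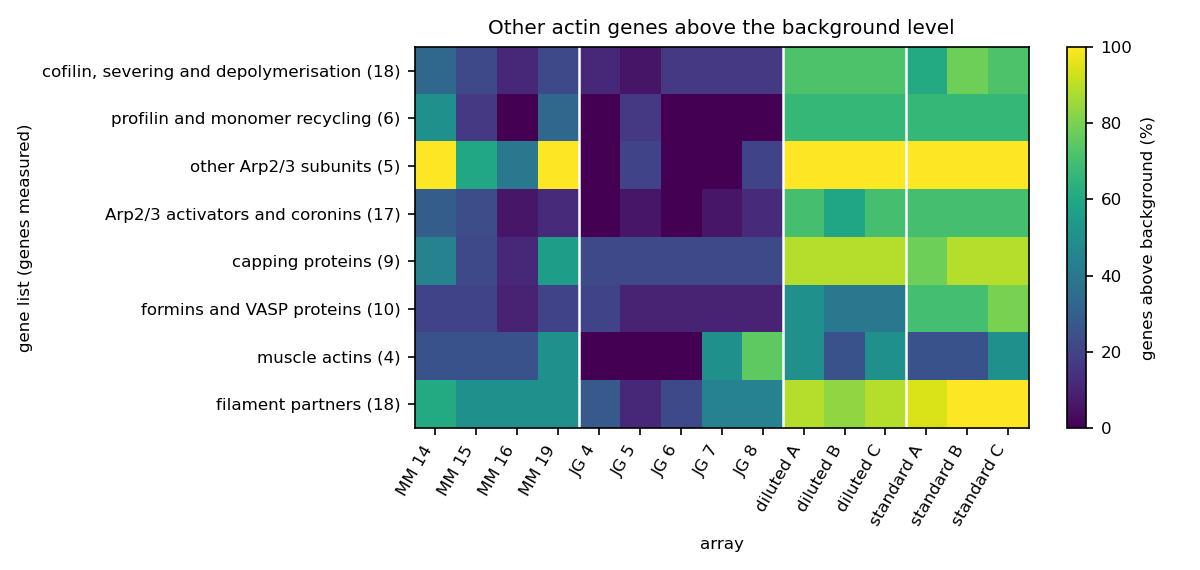
Share of measured genes above the background level (%, colour) for 8 lists of actin genes on each array, with the number of genes measured in brackets and groups from left to right as MM cells, JG cells, diluted cortex and standard cortex. Other Arp2/3 subunits stand at 100% in MM cells 14 and 19 and all cortex libraries and at 0 to 20% in JG cells.

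Spread over cells set the members apart from one another. Over MM cells the SD of Tmsb4x was 3.36, and 0.959% of 3860 genes above background had an SD at least as large, against a median SD of 1.26. Tmsb10, with an SD of 0.06, was at the other end, where 99.6% of genes varied at least as much, and Pfn1 (0.25) at 88.3%. In these cells Tmsb10 was at 12.92 to 13.05 and Pfn1 at 13.17 to 13.67. The highest signal per MM array was 13.77 to 13.92, and the part of this upper limit in the small SDs was not tested. Over JG cells Arpc2 had an SD of 3.37, which 1.41% of 1916 genes reached, and Tmsb10 2.53, which 11.0% reached, against a median of 0.44. Tmsb4x in JG cells had 0.24, and 83.8% of genes varied at least as much.

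Over the 9 cells, which share a protocol but differ in kind, the genes most like Tmsb4x among 3455 ranked were Gxylt1 (Pearson r = 0.816, Spearman rho = 0.9), Itgb5 (0.796 and 0.467), Cox6a1 (0.790 and 0.933), Hspb1 (0.779 and 0.833) and Rac1 (0.778 and 0.293). Without MM cells 15 and 16 the r was -0.40 for Itgb5 and -0.48 for Rac1, so these 2 rested on those cells, and 0.72 to 0.80 for the other 3. Gxylt1 ran only from 6.86 to 8.37, close to background (7.13 to 7.56 on MM and 7.55 to 7.92 on JG arrays). The part of the background level in its r was not tested. The genes most like Tmsb10 were Rpl7 (0.976 and 0.683), Rpl19 (0.974 and 0.750), Rps3 (0.964 and 0.567), Rps20 (0.960 and 0.300) and Cox4i1 (0.955 and -0.017). All 5 were low in JG cell 4, and without JG cells 4 and 7 their r was between -0.13 and 0.49. Tmsb4x and Tmsb10 had r = -0.328 and rho = -0.550 with each other.

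Diluted and standard cortex differ in how the RNA was amplified and labelled, and both start from cortex lysate. By limma, with Benjamini-Hochberg adjustment over 19531 probe sets, 4 of the 7 genes were higher and 2 lower in diluted cortex, where 38.0% of probe sets were higher and 36.7% lower. Pfn1 averaged 12.99 ± 0.02 in diluted and 10.14 ± 0.07 in standard libraries (SD, n = 3 each), a log2 difference of 2.86 (SE 0.0832, limma adjusted p = 7.6e-08). Arpc1b averaged 10.34 ± 0.19 and 7.47 ± 0.09 in diluted and standard libraries, a difference of 2.87 (SE 0.115, limma adjusted p = 2.4e-07). Its other probe set lay closer together, at 9.8 to 10.1 in diluted and 7.5 to 8.1 in standard libraries. Cfl1 was higher by 1.15 (limma adjusted p = 2.7e-05) and Arpc2 by 0.48 (limma adjusted p = 7.2e-04).

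Actb was lower in diluted cortex, with a difference of -1.05 (SE 0.137, limma adjusted p = 1.8e-04), and so was Tmsb4x by -0.31 (SE 0.0907, limma adjusted p = 0.015). Tmsb4x did not pass once each array was centred on its median (-0.13, limma adjusted p = 0.258). Tmsb10 differed by -0.36 (95% interval -0.75 to 0.02, limma adjusted p = 0.076) and did not pass. Without standard library A it passed (-0.51, limma adjusted p = 0.019). The 3 diluted and 3 standard libraries did not overlap in Tmsb4x, Actb, Cfl1, Pfn1, Arpc1b and Arpc2, and overlapped in Tmsb10. The share of all probe sets without overlap was not computed. By limma 38.0% of all tested were higher and 36.7% lower, so a difference between the protocols is common and does not set these genes apart.

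Of the other actin genes 81 were tested, with 26 higher (32.1%) and 36 lower (44.4%) in diluted cortex, beside 38.0% and 36.7% of all probe sets. Among Arp2/3 subunits 4 of 5 were higher, such as Arpc4 (2.17) and Arpc1a (2.13), and Actr3 was lower (-0.31, limma adjusted p = 0.012). Cofilin relatives and severing factors split evenly, 6 of 17 higher and 6 lower, with Cotl1 at 4.29 and Gmfb, which debranches filaments, at -2.74. Of formins and VASP proteins 4 of 9 were higher and 5 lower, with the formins Diaph2 (-2.69) and Fmnl2 (-2.63) farthest. Capping genes included Capza1 (-3.09) and Capg (2.34), and 9 of 18 filament partners were lower and 3 higher, with Tagln2 at 3.64 and Rdx at -2.22. None of 3 tested muscle actins passed (Acta2 1.06, limma adjusted p = 0.139). With 12 leukocyte genes measured, 9 were above background in each diluted library and 2 to 5 in the standard ones, and their part in these differences was not tested.

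**Figure D5:**
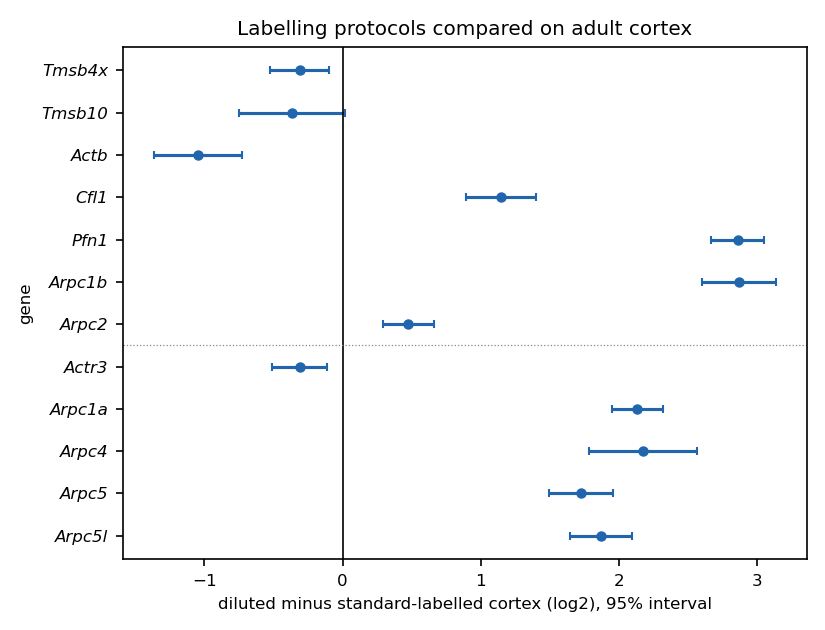
Log2 difference of diluted minus standard cortex with its 95% interval from limma (n = 3 libraries each) for the 7 genes (above the dotted line) and 5 other Arp2/3 subunits (below it). Pfn1 and Arpc1b lie near 2.9, Actb near -1, and the interval of Tmsb10 includes 0.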

How the data were processed

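Expression was measured on 15 Affymetrix MoGene 1.0 ST arrays. Signals per probe set were deposited on the log2 scale, from 2.22 to 13.98 over 35557 probe sets. The submitters' processing notes name Affymetrix Expression Console. No source used here states its version, how probes were summarised or whether arrays were normalized to each other, and no further normalization was applied. An array has no count depth, and the number of arrays limits the precision. Platform annotation names 21789 probe sets with 1 gene symbol and 1621 with several, while 12147 are unlisted, and the RefSeq gene table of GRCm38.p6 changed 0 symbols. Several of these genes have processed copies elsewhere in the mouse genome, and their part in a probe set's signal was not tested.

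Means, SDs, background levels and motif searches came from Python 3.11.15 (pandas 2.3.3, numpy 2.4.6), and plots were drawn with matplotlib 3.10.9. Cells were compared by differences of group means, with no test. Cortex libraries were tested in R 4.3.3 with lmFit and eBayes of limma 3.58.1, leaving out probe sets below the overall median in both groups, with Benjamini-Hochberg adjusted p under 0.05 as the threshold. The labels do not say whether libraries come from different animals, and a p-value then reflects only the spread among these libraries, which may be technical. The members, gene lists and comparisons were chosen with earlier results of these data known. Beside all members, up to 3 genes per list with the largest difference could be named, and for likeness the 5 genes with the highest r. The sentences on single cells of other genes were chosen after their values were seen. Alternatives were array centring, the receptor median taken off, quantile normalization, group medians, the mean over probe sets, no filter, an intensity trend, a replicate block and leaving out each array.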

Additional observations from a re-analysis of the deposited data

Results flagged for a closer look

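Tmsb10 in JG cell 4 was 6.91, far below the other 4 JG cells, and was the 1 value among 14 groups of cells examined whose gap to its nearest neighbour was large for the group's range. For normally distributed values chance gives about 1 such value in 20 groups. Tmsb4x in MM cells and Arpc2 in JG cells split into values above and below background, so that rate need not hold here. Both Tmsb10 probe sets gave the low value, and the same cell had 13.02 for Arpc2 and 13.36 for Pfn1, the highest of the JG cells for each.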

How the results depend on the processing

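The differences of Tmsb4x between MM and JG cells and of Tmsb10 between MM cells and diluted cortex kept their direction and stayed past the limit under every alternative run. No run left out MM cells 15 and 16 together, where Tmsb4x was below background. In MM cells 14 and 19 Tmsb4x was 11.59 and 11.69, beside a JG mean of 12.54. Other counts over the 7 genes moved. In MM against JG cells the number higher was 0 and became 1 without JG cells 4 and 5, and ranged from 0 to 1 when 1 array was left out. In JG cells against diluted cortex the number higher was 1, became 0 with the receptor median taken off and 2 without JG cells 4 and 5, and ranged from 1 to 2 with 1 array left out. The number lower was 0, became 2 with array centring, 4 with the receptor median taken off and 1 without JG cells 4 and 5, and ranged from 0 to 1 with 1 array left out. The JG median difference of -0.82 became -1.87 with the receptor median taken off and 0.79 after quantile normalization. In MM cells against diluted cortex the number lower was 1, became 2 with array centring and 3 with the receptor median taken off, and ranged from 1 to 2 with 1 array left out. The number higher became 2 after quantile normalization, and the median of 0.41 became -0.43 with the receptor median taken off. The cause was not tested.

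In the cortex, 6 of 7 genes were called, and 7 with a replicate block on the letters, where Tmsb10 passed (limma adjusted p = 0.014). Deviations of libraries with the same letter correlated at 0.176, 0.182 and 0.046, and every library correlated best with its own letter, a hint from the data and not from the design. Tmsb10 also passed after quantile normalization (-0.58) and with an intensity trend (limma adjusted p = 0.043). Over all probe sets the calls were 7430 higher and 7169 lower, against 7461 and 7170 with the block, 8932 and 5846 with array centring, which moved the median difference by 0.20, and 7671 and 10212 with no filter. With a few cells of each kind, and 2 JG cells low in ribosomal protein genes, a signal below background does not show that a gene was not expressed.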
